A study of Mus musculus with 4 samples.

Results

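Egr1, Egr2 and Egr3, the zinc finger transcription factors of the early growth response family, and Nr4a1, Nr4a2 and Nr4a3, the orphan nuclear receptors of the NR4A family, were followed in CD8 T cells isolated from mouse MC38 colon carcinomas. The 6 genes were taken by symbol, and all 6 were found among the 45773 genes common to the 4 libraries. Transcripts were measured by SMART-seq, a whole-transcript method for low RNA input, with 1 library per group. For the gain of Klf4, CD8 T cells of Pmel-I mice, whose transgenic receptor recognises the melanocyte antigen gp100, had been transduced with Klf4 or with the empty retroviral vector MigRI; they were transferred on day 7 into Rag2 KO mice bearing MC38-gp100 tumours, and GFP+ infiltrating cells were taken on day 15. For the loss of Klf4, PD1+ CD8 T cells were taken on day 14 from MC38 tumours of mice labelled Klf4 cKO or Control (WT); because the Klf4 level does not check the first label, that sample is called the cKO-labelled library. Rag2 KO hosts have no T or B cells of their own but keep their myeloid and stromal cells. The strain, age and number of mice per library, and the Cre driver and deleted part of Klf4 in the cKO mice, were not given in the sources available. With 1 library per group no difference has a replicate check or a p-value, and each statement below describes 1 library beside another.

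Both families are immediate early genes: they are transcribed within minutes of stimulation from factors already present in the cell, and their mRNAs are short-lived. In T cells they are induced by antigen receptor signalling. Egr1 responds mainly through the MAP kinase pathway with serum response factor. Nr4a genes respond through calcium signalling with MEF2 and CREB family factors, and Nr4a1 is widely used as a reporter of receptor signal strength. Egr2 and Egr3 are known for restraining T cell activation in anergy, and the NR4A receptors for their part in the exhaustion programme of CD8 T cells in tumours. Egr1 in particular is also induced by growth factors and stress in fibroblasts, macrophages and many other cells, so its mRNA is not specific to T cells.

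On GRCm38 (mm10), GENCODE vM21 annotates 0 other genes that overlap any of the 6. Egr2 spans chr10:67535475-67542188 on the plus strand and Egr3 chr14:70077203-70082614 on the plus strand. Nr4a1 spans chr15:101254269-101274795 on the plus strand, Nr4a2 chr2:57106830-57124003 on the minus strand and Nr4a3 chr4:48045153-48086447 on the plus strand. The longest consensus coding (CCDS) transcript has 2 exons in each Egr gene and 8 exons in each Nr4a gene, and its length ranges from 2553 nucleotides for Nr4a1 to 5720 for Nr4a3.

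Promoter windows of 4 members are shown so that the letters around the start sites of Egr2 and the Nr4a genes can be set side by side. Egr2 is the only Egr gene among them, so the windows do not compare the families. Windows of Egr1 and Egr3 are not reported here. Each runs from 250 bases before to 50 bases after a transcription start (RefSeq, GRCm38.p6), and where a gene had several windows, the one nearest to the start of its longest CCDS transcript was taken. The windows are chr10:67537619-67537918 for Egr2, chr15:101266596-101266895 for Nr4a1, chr2:57123954-57124253 for Nr4a2, printed from the minus strand, and chr4:48045055-48045354 for Nr4a3. Capitals mark TGACG, the core bound by CREB and ATF factors, on either strand, and the CArG box, the site of serum response factor.
Egr2: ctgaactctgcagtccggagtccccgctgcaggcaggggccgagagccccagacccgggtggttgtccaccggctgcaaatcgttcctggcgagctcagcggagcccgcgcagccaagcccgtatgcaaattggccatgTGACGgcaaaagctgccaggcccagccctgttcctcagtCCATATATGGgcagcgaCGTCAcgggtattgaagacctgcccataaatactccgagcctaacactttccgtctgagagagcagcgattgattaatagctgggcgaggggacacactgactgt
Nr4a1: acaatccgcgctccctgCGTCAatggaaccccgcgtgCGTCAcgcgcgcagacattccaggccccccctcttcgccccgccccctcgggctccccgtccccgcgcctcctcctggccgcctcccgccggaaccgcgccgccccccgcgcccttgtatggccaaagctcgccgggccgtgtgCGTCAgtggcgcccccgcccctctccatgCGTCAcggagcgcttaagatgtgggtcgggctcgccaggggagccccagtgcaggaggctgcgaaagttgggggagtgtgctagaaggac
Nr4a2: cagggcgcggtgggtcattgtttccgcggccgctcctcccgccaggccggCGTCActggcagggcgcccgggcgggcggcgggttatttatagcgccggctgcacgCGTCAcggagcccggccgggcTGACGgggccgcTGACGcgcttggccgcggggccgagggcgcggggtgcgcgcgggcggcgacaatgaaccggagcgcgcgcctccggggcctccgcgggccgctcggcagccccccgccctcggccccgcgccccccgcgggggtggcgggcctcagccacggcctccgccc
Nr4a3: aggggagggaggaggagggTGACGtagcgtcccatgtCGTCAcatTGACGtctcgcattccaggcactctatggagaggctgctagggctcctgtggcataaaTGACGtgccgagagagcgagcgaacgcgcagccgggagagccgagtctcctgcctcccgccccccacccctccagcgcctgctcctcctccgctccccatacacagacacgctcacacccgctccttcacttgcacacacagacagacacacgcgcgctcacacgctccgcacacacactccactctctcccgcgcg
TGACG occurred 4 times in each Nr4a window and 2 times in the Egr2 window. Of 32851 RefSeq windows of the same length, 20.8% held at least 1 match, 5.01% at least 2 and 0.231% at least 4. The CArG box occurred in Egr2, starting 72 bases before the start site, and in none of the 3 Nr4a windows, against 1.63% of all windows. CACCC, a core of Kruppel-like factor sites, was found 1 time in Egr2, 2 times in Nr4a2, 3 times in Nr4a3 and 0 times in Nr4a1, and 57.5% of all windows held it. GCGNGGGCG, the site of the Egr proteins themselves, was found 1 time each in Nr4a1 and Nr4a2, where it overlaps GGGCGG, and in 5.55% of all windows. AAAGGTCA, the element bound by NR4A monomers, the AP-1 letters TGANTCA and the full TGACGTCA were in none of the 4 windows. All motifs were searched on both strands. A match describes the letters of the window and is not a measured site.

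Klf4 itself was at 26.0 TPM in the Klf4-transduced library and 8.69 TPM in MigRI, and at 9.28 TPM in the cKO-labelled library and 7.52 TPM in control, so its level does not check the cKO label. TPM, a length-scaled share of all transcripts, holds no read number; the depth is unknown, and counting error cannot be stated. A gene was called measured when its mean reached 1 TPM, as for 12570 genes and 5 of the 6 members, all but Egr3. Differences are those of log2(TPM + 1) and understate the change of low genes. Genes were called higher or lower from 1 log2, that is 2-fold. The median measured gene was higher by 0.79 log2 in Klf4-transduced than in MigRI cells and by 0.74 log2 in the cKO-labelled library than in control. A relative difference has that median taken off.

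Cd8a, the CD8 alpha chain, was above 0 in all 4 libraries, at 43.9 TPM in Klf4-transduced and 168 TPM in MigRI cells, and at 518 TPM in the cKO-labelled library and 136 TPM in control. The 10 CD8 T cell identity genes summed to 5752 TPM with Klf4 and 24367 TPM with MigRI, and to 18257 TPM in the cKO-labelled library and 7771 TPM in control. In bulk RNA, fewer T cells and less of these RNAs per cell cannot be told apart. Transcripts of other cells were present in all 4 libraries. The 15 macrophage and monocyte genes summed to 7935 TPM with Klf4 and 2270 TPM with MigRI, and to 2643 and 1956 TPM in the cKO-labelled library and in control. Fcer1g and Tyrobp held 1018 and 433 TPM of the control sum, and 641 and 210 TPM of the cKO-labelled sum. Of 14 measured genes of this list, 8 were called higher and 1 lower in the cKO-labelled library. The 9 fibroblast and endothelium genes summed to 1390 and 145 TPM in Klf4-transduced and MigRI cells, and to 253 and 30.4 TPM in the cKO-labelled library and in control.

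Egr1 was the member with the widest range of levels. It was at 373 TPM in Klf4-transduced and 18.5 TPM in MigRI cells, and at 58.6 TPM in the cKO-labelled library and 17.7 TPM in control. Both vector-only and control cells thus sat close together, and each partner library was above its own. Egr1 lay above 95.8% of measured genes with Klf4 and above 70.6% with MigRI, and above 84.6% in the cKO-labelled library and 79.0% in control.

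Egr2, which limits T cell activation, was at 19.1 TPM with Klf4, 3.08 TPM with MigRI, 2.71 TPM in the cKO-labelled library and 3.45 TPM in control. The Klf4-transduced library was the high one, and the other 3 lay between 2.71 and 3.45 TPM. Egr3, a close relative with overlapping function, was at 1.31 TPM with Klf4, 0.678 TPM with MigRI, 0.785 TPM in the cKO-labelled library and 0.184 TPM in control. It was the lowest of the 6 in every library, above at most 9.18% of measured genes, and its differences rest on values near or under 1 TPM.

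Nr4a1, which encodes the receptor Nur77, was at 54.8 TPM with Klf4 and 49.7 TPM with MigRI, and at 37.9 TPM in the cKO-labelled library and 16.5 TPM in control. Nr4a2, which encodes Nurr1, was at 19.97 TPM with Klf4 and 40.4 TPM with MigRI, and at 92.9 TPM in the cKO-labelled library and 35.9 TPM in control. Nr4a3, which encodes NOR1, was at 3.90 TPM with Klf4 and 6.32 TPM with MigRI, and at 12.4 TPM in the cKO-labelled library and 5.03 TPM in control. Nr4a2 and Nr4a3 thus followed the same order of libraries, highest in the cKO-labelled library and lowest with Klf4, while Nr4a1 was highest with Klf4 and lowest in control.

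**Figure D1:**
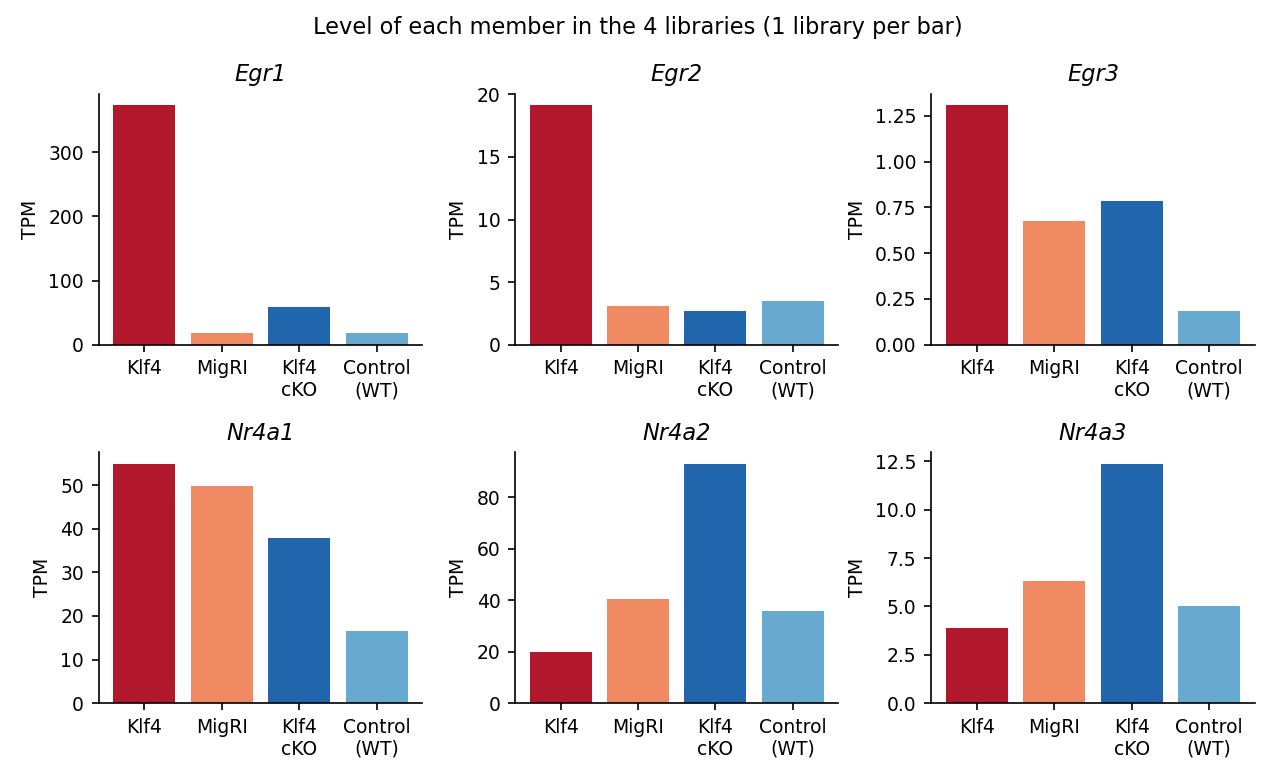
TPM of the 6 members (1 panel per gene, each with its own linear axis from 0) in the Klf4-transduced, MigRI, Klf4 cKO and control (WT) libraries, 1 library per bar and no error bar. Egr1 and Egr2 stand out in the Klf4-transduced library at 373 and 19.1 TPM, while Nr4a2 and Nr4a3 are highest in the cKO-labelled library at 92.9 and 12.4 TPM.

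The order of the members by level differed between libraries. In Klf4-transduced cells it was Egr1, Nr4a1, Nr4a2, Egr2, Nr4a3 and Egr3, and in MigRI cells Nr4a1, Nr4a2, Egr1, Nr4a3, Egr2 and Egr3. The cKO-labelled library and control shared the order Nr4a2, Egr1, Nr4a1, Nr4a3, Egr2 and Egr3. Without replicates it cannot be said which neighbours in these orders differ beyond their spread.

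Setting Klf4-transduced beside MigRI cells asks which transcripts differ after Klf4 was introduced before transfer. Here the families parted: Egr1 and Egr2 were higher with Klf4, and no Nr4a member was called higher. Summed over the family, Egr transcripts were at 393 TPM with Klf4 and 22.2 TPM with MigRI, a ratio of 17.7, and Nr4a transcripts at 78.7 TPM with Klf4 and 96.4 TPM with MigRI, a ratio of 0.816. The Egr sum was 5.00 times the Nr4a sum with Klf4 and 0.230 times with MigRI.

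Egr1 differed by 4.26 log2 and by 3.47 log2 once the median gene was taken off, and 99.8% of measured genes had a smaller difference. Egr2 differed by 2.30 log2 with a relative value of 1.51 log2, with 88.7% of measured genes below it. Egr3 differed by 0.46 log2, with a relative value of -0.33 log2, so its direction turned with the scaling. Egr1 and Egr2 were thus called on both scales, and Egr3 on neither.

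Nr4a1 differed by 0.14 log2, with a relative value of -0.65 log2, so its sign also depends on the scaling, and 32.3% of measured genes had a smaller difference. Nr4a2 differed by -0.98 log2, a ratio of TPM of 0.494, with a relative value of -1.77 log2, above 10.5% of measured genes. Nr4a3 differed by -0.58 log2, with a relative value of -1.37 log2, above 16.4% of measured genes. The T cell receptor constant genes Trac, Trbc1 and Trbc2 were themselves lower with Klf4. Against them, Nr4a1, Nr4a2 and Nr4a3 differed by 2.12, 0.98 and 1.07 log2, all above 0, with Nr4a2 short of a call. The median gene was at 2.36 log2 on that scale. Relative to it, the 3 were at -0.24, -1.39 and -1.30 log2.

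Of the 6 members, with Egr3 counted although it was not measured, 2 were at least 2-fold higher with Klf4 as deposited, where 43.7% of measured genes were, and 0 were at least 2-fold lower, where 10.3% were. Relative to the median gene 2 were higher, against 21.4% of measured genes, and 2 were lower, against 23.6%. The median of the 6 was 0.30 log2, below that of all measured genes, 0.79 log2. Counts of this size say nothing particular about the 6 genes, and the one value at the edge of the background is the Egr1 difference.

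The comparison of the cKO-labelled library with control addresses PD1+ cells from mice whose Klf4 gene is labelled as conditionally deleted. Egr1 and all 3 Nr4a members were at least 2-fold higher in that library as deposited, and Egr2 was not. The Egr sum was 62.1 TPM in the cKO-labelled library and 21.4 TPM in control, a ratio of 2.90, and the Nr4a sum was 143 TPM against 57.4 TPM, a ratio of 2.49. The ratio of the Egr sum to the Nr4a sum was 0.434 in the cKO-labelled library and 0.373 in control.

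Egr1 differed by 1.67 log2, with a relative value of 0.93 log2, and 85.6% of measured genes had a smaller difference. Nr4a1, Nr4a2 and Nr4a3 differed by 1.15, 1.35 and 1.15 log2, and relative to the median gene by 0.41, 0.61 and 0.41 log2. The relative sign of Nr4a1 and Nr4a3 depended on the setting: over genes averaging at least 10 TPM they were at -0.038 and -0.043 log2, and Nr4a1 was at -0.046 log2 under quantile scaling and -0.033 log2 when levels were taken relative to the receptor genes. As deposited, Nr4a1, Nr4a2 and Nr4a3 were above 67.4%, 75.2% and 67.3% of measured genes. The 3 Nr4a ratios of TPM lay close together, at 2.30, 2.59 and 2.46. Egr2 went the other way, by -0.26 log2, with a relative value of -1.002 log2. Egr3 differed by 0.59 log2, with a relative value of -0.15 log2, and both of its levels were under 1 TPM. The relative sign of Egr3 also depended on the setting: it turned in 5 of 11 alternatives, which ranged from -0.60 to 0.65 log2.

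In this comparison 4 of the 6 members were at least 2-fold higher as deposited, where 38.4% of measured genes were, and 0 lower, where 6.92% were. Relative to the median gene 0 members were higher, against 12.4% of measured genes, and 1, Egr2, was lower, against 16.2%. The median of the 6 was 1.15 log2, beside 0.74 log2 over all measured genes. Trac, Trbc1 and Trbc2 were higher in the cKO-labelled library. Against them, Egr1, Nr4a1, Nr4a2 and Nr4a3 differed by -0.093, -0.60, -0.44 and -0.47 log2, and the median gene by -0.57 log2. These 4 genes were thus no longer called relative to the median gene, and their sign turned relative to Trac, Trbc1 and Trbc2. Other genes of the receptor complex differed less: Cd3d, Cd3e and Cd3g by -0.41, 1.37 and 1.27 log2, and scaling to them was not tested.

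**Figure D2:**
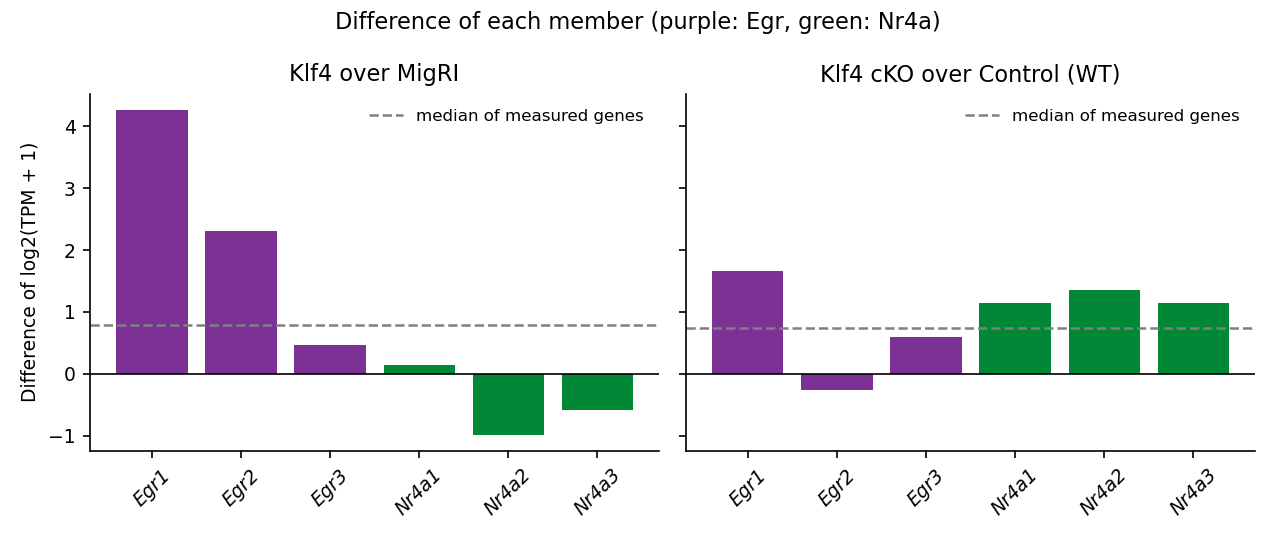
Difference of log2(TPM + 1) of each member for Klf4-transduced over MigRI (left) and for cKO-labelled over control (right), with Egr members in purple, Nr4a members in green and the median of the 12570 measured genes as a dashed line at 0.79 and 0.74 log2. Egr1 is above the dashed line in both panels, and the 3 Nr4a members are below it on the left and above it on the right.

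The make-up of each family does not depend on a factor applied to a whole library. Egr1 made up 94.8% of the Egr sum with Klf4 and 83.1% with MigRI, and 94.4% in the cKO-labelled library and 83.0% in control. Egr2 made up 4.86% with Klf4 and 13.9% with MigRI, and 4.36% in the cKO-labelled library and 16.1% in control. Egr1 transcripts thus outnumbered those of Egr2 by 19.5 to 1 with Klf4 and 5.99 to 1 with MigRI, and by 21.7 to 1 in the cKO-labelled library and 5.14 to 1 in control. The share of Egr1 was larger in the first library of both comparisons, by similar amounts, although the Egr2 level was higher in Klf4-transduced than in MigRI cells and lower in the cKO-labelled library than in control.

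Within the NR4A family, the gain experiment and the loss experiment had different leading members. Nr4a1 made up 69.7% of the Nr4a sum with Klf4 and 51.5% with MigRI. In the loss experiment Nr4a2 led, with 64.9% in the cKO-labelled library and 62.5% in control, and Nr4a1 made up 26.5% and 28.7%. Nr4a3 was the smallest part in each library, 4.95% with Klf4, 6.55% with MigRI, 8.64% in the cKO-labelled library and 8.77% in control. The Nr4a make-up was thus nearly the same in the cKO-labelled library and in control, while Nr4a1 had a larger share and Nr4a2 a smaller one in Klf4-transduced than in MigRI cells. The experiments differ in the T cells, the host, the tumour antigen, the sort gate and the day, so these cannot be told apart as sources of the different leading member.

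**Figure D3:**
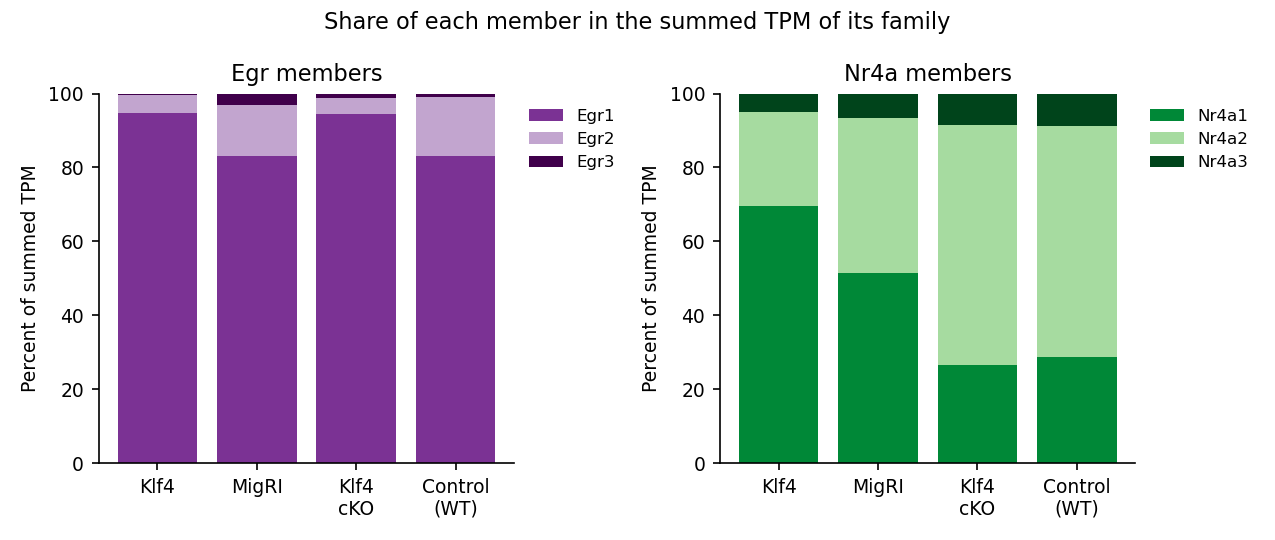
Share of each member in the summed TPM of Egr1, Egr2 and Egr3 (left) and of Nr4a1, Nr4a2 and Nr4a3 (right), in percent, in the Klf4-transduced, MigRI, Klf4 cKO and control (WT) libraries. Egr1 takes 94.8% and 94.4% in the Klf4-transduced and Klf4 cKO libraries, and Nr4a1 takes 69.7% of the Nr4a sum with Klf4 against 51.5% with MigRI.

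Genes around the 6 members in the same pathway are given as counts on both scales, since the balance of several lists turned with the scaling. They are to be read against the shares of all measured genes: as deposited 43.7% higher and 10.3% lower with Klf4 and 38.4% and 6.92% in the cKO-labelled library, and relative to the median gene 21.4% and 23.6% with Klf4 and 12.4% and 16.2% in the cKO-labelled library. The fourth Egr gene, Egr4, was listed at 0 in all 4 libraries. Nab1 and Nab2 encode corepressors that bind Egr proteins, and Nab2 is itself induced by them. Nab2 was at 12.4 TPM with Klf4 and 5.74 TPM with MigRI, and at 8.52 TPM in the cKO-labelled library and 6.31 TPM in control. Nab1 was at 11.5 TPM with Klf4 and 6.28 TPM with MigRI, and at 16.5 TPM in the cKO-labelled library and 6.54 TPM in control. The relative log2 differences of Nab2 were 0.20 and -0.36 and those of Nab1 -0.01 and 0.48 for Klf4 over MigRI and for cKO-labelled over control. As deposited, the differences were 0.995 and 0.38 log2 for Nab2 and 0.78 and 1.22 log2 for Nab1. With Klf4 both corepressors were thus near the median gene, where the relative difference of Egr1 was 3.47 log2.

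Upstream of both families stand the enzymes and adaptors of the proximal T cell receptor pathway. Of 13 measured, 0 were at least 2-fold higher with Klf4 on either scale, while 7 were lower as deposited (median -1.05 log2) and 10 relative to the median gene (median -1.84 log2). Lat, the adaptor that couples the receptor to MAP kinase and calcium signals, was at 70.9 TPM with Klf4 and 466 TPM with MigRI, and Lck, the first kinase of the pathway, at 69.4 and 269 TPM. In the cKO-labelled library over control, 6 were higher and 0 lower as deposited (median 0.96 log2), and 1 was higher and 1 lower on the relative scale (median 0.22 log2). Cd247, the zeta chain of the receptor, was at 85.6 TPM in the cKO-labelled library and 23.7 TPM in control. The CD8 T cell identity genes, which mark the T cells themselves, had lower values still with Klf4: 9 of 10 were lower and 0 higher on both scales, with a median of -2.07 log2 as deposited and -2.86 log2 on the relative scale. In the cKO-labelled library 9 of these 10 were higher and 0 lower as deposited (median 1.75 log2), and 5 were higher and 1 lower on the relative scale (median 1.01 log2). The part of the T cell transcripts in the Nr4a and receptor pathway values was not tested.

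Among 17 measured kinases and transcription factors that act on Egr and Nr4a promoters, 8 were higher and 1 lower with Klf4 as deposited (median 0.77 log2), and 4 were higher and 2 lower on the relative scale (median -0.03 log2). Mapk3, the MAP kinase ERK1, was at 63.5 TPM with Klf4 and 15.3 TPM with MigRI, and Rela, a subunit of NF-kappaB, at 70.5 and 10.2 TPM. Srf, which encodes serum response factor and was picked with its values known, was at 7.88 TPM with Klf4 and 1.60 TPM with MigRI, a relative log2 difference of 0.98. For the cKO-labelled library over control, 4 were higher and 1 lower as deposited (median 0.48 log2), and 2 were higher and 1 lower on the relative scale (median -0.26 log2). Crem, which encodes CREB-like activators and repressors, was at 218 TPM in the cKO-labelled library and 59.1 TPM in control; in the gain experiment it was at 18.1 TPM with Klf4 and 54.5 TPM with MigRI. Like Nr4a2 and Nr4a3, Crem was highest in the cKO-labelled library and lowest with Klf4.

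Of 22 immediate early genes that many cell types induce, 18 were at least 2-fold higher and 0 lower with Klf4 as deposited (median 2.06 log2), and 12 were higher and 1 lower on the relative scale (median 1.27 log2). The list includes Klf4, the introduced gene itself, which counts among the 18 at 1.48 log2. Its relative value was 0.69 log2, and it differed by 0.27 log2 in the cKO-labelled library over control. Ier3, an early response gene, was at 1365 TPM with Klf4 and 76.7 TPM with MigRI, and Jun, an AP-1 factor, at 1381 and 84.5 TPM. Fosl1, another AP-1 factor, was at 177 TPM with Klf4 and 10.9 TPM with MigRI. Egr1, at a relative log2 difference of 3.47, was above all 22 of them, whose highest value was 3.34 for Ier3. In the cKO-labelled library over control, 12 of 22 were higher and 1 lower as deposited (median 1.27 log2), and 4 were higher and 2 lower on the relative scale (median 0.53 log2). Ier3 was at 190 TPM in the cKO-labelled library and 25.3 TPM in control. The ratio of Egr1 to Fos, an AP-1 gene induced with Egr1, was 0.234 with Klf4 and 0.123 with MigRI, and 0.280 in the cKO-labelled library and 0.287 in control.

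The balance of genes that antigen receptor signalling induces in activated T cells turned with the scaling in the gain experiment. Of 22 measured, 6 were at least 2-fold higher and 2 lower with Klf4 as deposited (median 0.32 log2), and 2 were higher and 8 lower on the relative scale (median -0.47 log2). Tnf, a cytokine that macrophages also make, was at 138 TPM with Klf4 and 13.6 TPM with MigRI, and Myc, a growth regulator, at 132 and 21.9 TPM. Tnfrsf4, the costimulatory receptor OX40, was at 204 TPM with Klf4 and 1581 TPM with MigRI. Between the cKO-labelled library and control, 16 were higher in the cKO-labelled library and 0 lower as deposited (median 1.53 log2), and 6 were higher and 2 lower on the relative scale (median 0.79 log2). Dusp2, a phosphatase of MAP kinases, was at 573 TPM in the cKO-labelled library and 107 TPM in control. Tnfrsf9, the costimulatory receptor 4-1BB, was at 558 and 122 TPM, and Crtam, an adhesion receptor of activated CD8 T cells, at 19.2 and 3.56 TPM.

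Genes linked to Egr2 and Egr3 in anergy were found on both sides of the median gene. Of 17 measured, 4 were at least 2-fold higher and 5 lower with Klf4 as deposited (median -0.06 log2), and 3 were higher and 7 lower on the relative scale (median -0.85 log2). Socs3, an inhibitor of cytokine signalling, was at 70.6 TPM with Klf4 and 5.33 TPM with MigRI, and Rnf128, the ubiquitin ligase GRAIL, at 26.8 and 2.39 TPM. Nrgn was at 9.17 TPM with Klf4 and 355 TPM with MigRI. In the cKO-labelled library 8 were higher and 1 lower than in control as deposited (median 0.95 log2), and 1 was higher and 2 lower on the relative scale (median 0.22 log2). Nrn1 was at 44.7 TPM in the cKO-labelled library and 11.4 TPM in control.

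Of 13 measured genes linked to NR4A receptors in exhaustion, 4 were at least 2-fold higher and 5 lower with Klf4 as deposited (median -0.57 log2), and 1 was higher and 8 lower on the relative scale (median -1.36 log2). The CD8 identity genes had the lower relative median of -2.86 log2. Tox, a transcription factor that sustains exhausted cells, was at 0.612 TPM with Klf4 and 7.89 TPM with MigRI, and Batf, an AP-1 family factor, at 18.1 and 124 TPM. In the cKO-labelled library 9 were higher and 0 lower than in control as deposited (median 1.28 log2), and 4 were higher and 0 lower on the relative scale (median 0.55 log2). Pdcd1, which encodes PD1, the marker of the sort in the loss experiment, was at 409 TPM in the cKO-labelled library and 91.2 TPM in control. Of the retinoid X receptor genes, whose products pair with Nr4a1 and Nr4a2, Rxrb was at 30.4 TPM with Klf4 and 5.80 TPM with MigRI and at 6.36 TPM in the cKO-labelled library and 3.58 TPM in control, and Rxrg was listed at 0 in all 4 libraries.

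**Figure D4:**
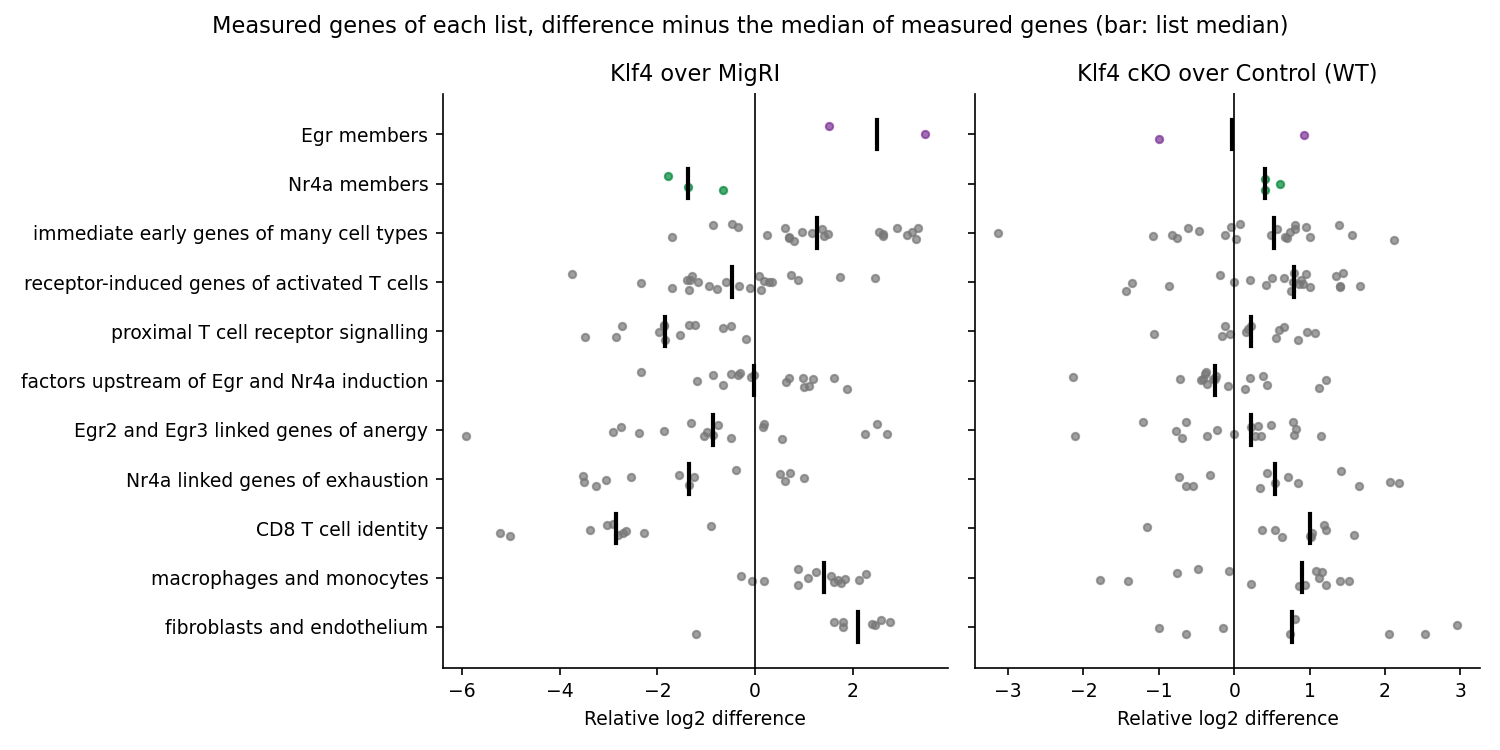
Relative log2 difference (difference of log2(TPM + 1) minus the median of measured genes) of each measured gene in 11 lists, for Klf4-transduced over MigRI (left) and the cKO-labelled library over control (right); dots are genes, black bars list medians, and the panels have different scales. With Klf4 the measured Egr members lie with immediate early, macrophage and fibroblast genes on the higher side, and the Nr4a members lie on the lower side, where the medians of proximal receptor signalling, exhaustion and, lowest of all, CD8 T cell identity genes also lie.

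Egr1 was on the higher side with Klf4, as were most macrophage and fibroblast genes. In the cKO-labelled library its relative difference was 0.93 log2. List medians there were 0.90 log2 for macrophage, 0.77 log2 for fibroblast and endothelium and 1.01 log2 for CD8 T cell identity genes. Relative to the median gene, with Klf4 9 of 14 measured macrophage and monocyte genes were 2-fold or more higher and 0 lower, and 7 of 8 measured fibroblast and endothelium genes were higher and 1 lower. The lower gene was Pecam1, an endothelial marker, at 0.855 TPM with Klf4 and 1.46 TPM with MigRI. Cdh5, the other endothelial marker, was not measured. As deposited, 11 of the macrophage and 7 of the fibroblast genes were higher and 0 lower. Lyz2, the lysozyme of macrophages, was at 1423 TPM with Klf4 and 344 TPM with MigRI, and Sparc, a matrix protein, at 821 and 89.3 TPM. In the cKO-labelled library over control, 6 of 14 macrophage genes were higher and 2 lower, and 3 of 8 fibroblast genes were higher and 0 lower on the relative scale, beside 8 higher and 1 lower and 5 higher and 0 lower as deposited, with Sparc at 186 TPM in the cKO-labelled library and 18.4 TPM in control. The 2 lower macrophage genes on the relative scale were Tyrobp and Fcer1g. Of the markers of both lists, Cdh5 was listed at 0 in control and the others were above 0 in all 4 libraries. The part of these cells in the Egr1 and Egr2 values was not tested. Of 8 measured neutrophil and mast cell genes, 6 were higher and 0 lower with Klf4 and 4 were higher and 2 lower in the cKO-labelled library on the relative scale, beside 8 and 0 and 5 and 2 as deposited, and the list summed to 181 TPM with Klf4, 30.6 TPM with MigRI, 67.7 TPM in the cKO-labelled library and 29.6 TPM in control. In the cKO-labelled library the 4 higher were the mast cell genes Cpa3, Mcpt4, Tpsb2 and Cma1. The 2 lower were the neutrophil genes S100a8, at 2.44 TPM against 18.1 TPM in control, and S100a9, at 0.732 against 10.9 TPM. Ly6g was listed at 0 with Klf4, in the cKO-labelled library and in control, Mcpt4, Tpsb2 and Tpsab1 with MigRI and in control, and Cpa3 and Cma1 in control. The other lists had 2 measured genes each. B cell genes summed to 23.7 TPM with Klf4, 6.80 TPM with MigRI, 6.34 TPM in the cKO-labelled library and 2.26 TPM in control, and dendritic cell genes to 126, 286, 127 and 31.5 TPM in that order. CD4 T cell genes summed to 1.57, 2.08, 4.86 and 11.4 TPM, and tumour epithelium genes to 5.15, 2.60, 8.92 and 6.96 TPM. Ms4a1 and Krt19 were listed at 0 in all 4 libraries, and Ccr7, the highest of these lists and also a gene of T cells, was at 125 TPM with Klf4 and 286 TPM with MigRI and at 121 TPM in the cKO-labelled library and 21.7 TPM in control.

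The genes most like each member were sought among the 4967 genes that averaged 10 TPM or more, without predicted, small RNA, mitochondrial and ribosomal protein genes, by the Euclidean distance between log2(TPM + 1) profiles over the 4 libraries, each centred on its own mean. For Egr1 the nearest 5 were Triobp, Myadm, Slc2a1, Slc39a13 and Plpp2, at distances from 0.38 to 0.55 log2. Slc2a1, the glucose transporter GLUT1, was at 187 TPM with Klf4 and 13.5 TPM with MigRI, and at 37.3 TPM in the cKO-labelled library and 9.01 TPM in control. For Egr2 they included Irf2bp2, Ptn, Mgat1 and Alkbh5, at 0.17 to 0.33 log2. For Nr4a1 they were Sar1a, Hmgb1-ps2, Aven, Rnf7 and Gpx1, at 0.08 to 0.14 log2, and for Egr3, whose level was low, Ube2d2a, Zfp91, Ube2q1, Snhg1 and Zranb2, at 0.05 to 0.14 log2.

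For Nr4a2 the nearest 5 were Flt3l, Prkch, Padi2, Pim2 and Il2rb, at distances from 0.11 to 0.24 log2. Il2rb, a chain of the interleukin 2 receptor, was at 30.9 TPM with Klf4 and 71.9 TPM with MigRI, and at 161 TPM in the cKO-labelled library and 69.5 TPM in control. For Nr4a3 they were Xpa, Prkcq, Tbx21, Ccl3 and Lcp1, at 0.10 to 0.16 log2. Prkcq encodes the protein kinase C of the T cell receptor pathway, and Tbx21 the transcription factor T-bet of effector T cells. Nr4a2 was the member closest to Nr4a3, at 0.52 log2 and rank 58, while Egr1 was at 3.95 log2 and rank 4716 from it. With 4 libraries there are few ways for profiles to differ, so closeness is a description of these tables.

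**Figure D5:**
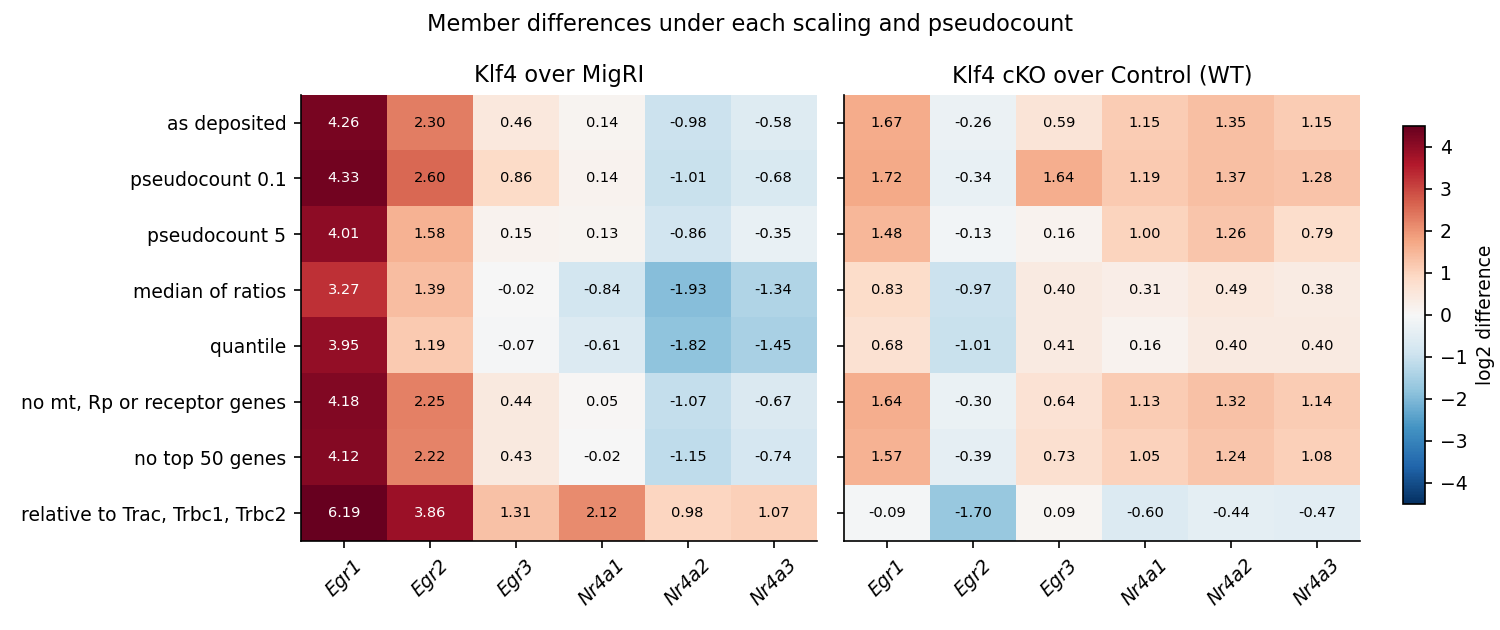
Log2 difference of each member (columns) as deposited and under 7 other pseudocounts or scalings (lines), for Klf4-transduced over MigRI (left) and the cKO-labelled library over control (right); red is higher and blue lower in the first library. Egr1 and Egr2 are higher with Klf4 in every line, from 3.27 to 6.19 and from 1.19 to 3.86 log2, while the signs of the Nr4a members depend on the scaling, as on the lowest line, relative to Trac, Trbc1 and Trbc2.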

How the data were processed

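The authors deposited 1 table of TPM per gene for each library, per the file headers. Trimmomatic, HISAT2, StringTie, edgeR and the build mm10 are named in the submitters' processing notes; their roles, versions and annotation were not given there. Per the labels' protocols, 10000 to 20000 T cells were collected, RNA was extracted with TRI Reagent and amplified by SMART-seq. In the control table, 26 symbols had become calendar dates; 22 were mapped back by name and 4 left out, none of them a member. Here log2(TPM + 1) differences were taken within each experiment (Python 3.11.15, pandas 2.3.3), with no test, since each group holds 1 library. The calculation was tested on simulated data with as many genes raised as lowered. Those data had no broad shift of the median gene, so they check the arithmetic and not the calls made here. Members and 16 lists of related genes and other cells were chosen with earlier results of these data known. Named genes were the members, Klf4, Egr4, Nab1 and Nab2. Each related list gave up to 4 measured genes with the largest difference in each comparison, and lists of other cell types their 2 highest. The 5 genes nearest to each member were also named (without Gm, Rik, Mir, Snor, mt-, Rps or Rpl names). The text gives some of them. Cd8a, Cd3e, Fos, Srf, Tyrobp and the genes listed at 0 were added after their values were seen. Alternatives were pseudocounts of 0.1 and 5, median of ratios and quantile scaling, rescaling after removal of mitochondrial, receptor segment and ribosomal protein genes or of the 50 most abundant genes, levels relative to Trac, Trbc1 and Trbc2, and no filter or means of at least 5 or 10 TPM. The median over the measured genes of at least 1000 nucleotides was added after seeing the data. Coordinates came from GENCODE vM21 and promoter windows from RefSeq on GRCm38.p6; windows of 4 members are shown. Some genes that the naming rule picked are not reported here.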

Additional observations from a re-analysis of the deposited data

How the results depend on the processing

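No paired analysis was possible because each group holds 1 library, nor could a replicate be left out. Egr1 and Egr2 stayed at least 2-fold higher in Klf4-transduced than in MigRI cells under every pseudocount, scaling, filter and length setting tried, with or without the median gene taken off. For Klf4 over MigRI, the member median, 0.30 log2, was -0.43 under median of ratios, -0.34 under quantile scaling and 1.72 relative to Trac, Trbc1 and Trbc2. The number of members higher, 2, was 5 relative to those receptor genes, where Nr4a3 turned to 1.07 log2. The number lower, 0, was 2 under median of ratios and quantile scaling, and 1 with a pseudocount of 0.1, without mitochondrial, receptor segment and ribosomal protein genes, and without the 50 most abundant genes. Relative to the median gene, the number lower, 2, was 1 with a pseudocount of 5 and 0 without a filter. It was 3 when levels were taken relative to the receptor genes, where Egr3 was at -1.06 log2.

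For the cKO-labelled library over control, the member median, 1.15 log2, was 0.89 with a pseudocount of 5, 0.39 under median of ratios, 0.40 under quantile scaling and -0.46 relative to the receptor genes. On that last scale Egr1, Nr4a1, Nr4a2 and Nr4a3 turned to -0.093, -0.60, -0.44 and -0.47 log2. The number higher, 4, was 5 with a pseudocount of 0.1 and 2 with a pseudocount of 5. It was 0 under median of ratios, quantile scaling and relative to the receptor genes. The number lower, 0, was 1 under quantile scaling and relative to the receptor genes. Relative to the median gene, the number higher, 0, was 1 with a pseudocount of 5 and 4 without a filter, and the number lower, 1, was 0 under both. Without a filter the median gene is at 0 in both comparisons, so relative and deposited differences are the same. The shares of all genes called also depend on the filter: without one, 13.9% were higher and 3.10% lower with Klf4, and 10.9% and 2.35% in the cKO-labelled library. At a mean of at least 10 TPM, 58.0% were higher in the cKO-labelled library as deposited, and 6.50% after the median gene was taken off. The cause of the other shifts was not tested. The median over genes of at least 1000 nucleotides, chosen after seeing the data, was 1.02 and 0.82 log2 and left every member count the same. Depth is unknown, so the precision of Egr3, near 1 TPM, cannot be stated.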
